A study of Mus musculus with 8 samples.

Results

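The members are 10 genes of TGF-beta activation and signalling, Itgav, Itgb8, Tgfb1, Thbs1, Tgfbr1, Tgfbr2, Smad2, Smad3, Smad7 and Ski, measured in sorted CD103+ CD11b+ conventional dendritic cells (cDC). They were chosen by name for their roles in the pathway, with earlier results of these data known. All 10 were found among 22180 genes measured by a probe set that names 1 gene. Each is a gene's brightest such probe set over all 8 arrays. The cells came from mesenteric lymph nodes of male C57BL6 mice that were 8 weeks old and ate control chow. In 4 of the arrays the mice carried the hBcl-2 transgene, human BCL2 driven by the CD11c promoter, and the other 4 held cells of littermates without it, labelled wild type. BCL2 blocks the mitochondrial route to apoptosis, and the CD11c promoter is active in dendritic cells and in some other myeloid cells. Each array held a pool of 2 to 3 samples, so n = 4 pools per genotype, and the labels do not name the animals of a pool.

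TGF-beta is secreted in a latent form, folded inside a cap made from its own propeptide, and must be freed before it can signal. The integrin alpha-v beta-8, made from Itgav and Itgb8, frees it by binding that cap, and intestinal dendritic cells are known to use this integrin to promote regulatory T cells. Active TGF-beta binds TGFBR2, which phosphorylates TGFBR1, which in turn phosphorylates SMAD2 and SMAD3. These enter the nucleus with SMAD4 and change transcription, while SMAD7 blocks the receptor and SKI represses SMAD targets.

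Values are log2 probe set levels, and a difference is transgenic minus wild type on that scale. A gene is called only if limma's test over all 22180 genes gave an adjusted p below 0.05. As a guide to dim signal, 95% of 1390 olfactory and vomeronasal receptor genes, which dendritic cells are not known to use, had a mean level below 5.36. The arrays had medians of 5.05 to 5.15. Transgenic replicate 4 had the highest median and the narrowest distribution, with an SD over probe sets of 2.00 where the other arrays had 2.07 to 2.11. Transgenic replicate 4 was the least like its own group, with an average Pearson correlation over genes of 0.974 where the other 7 arrays had 0.980 to 0.988. It was also the lowest transgenic array for 8 of the 10 members, against 28.4% of all genes and 43.2% of the genes above the dim guide. The cDC genes Flt3, Zbtb46, Itgax, H2-Ab1, Ccr7, Irf4 and Irf8 were all above the guide. The genes of the sorting markers were close to it, with Itgae (CD103) at 5.66 and 5.40 and Itgam (CD11b) at 5.57 and 5.58 in wild type and transgenic. Of 8 CD11b+ cDC genes 5 were above the guide, and Clec4a4, Mgl2 and Clec10a were not. Of 7 measured genes of the cDC1 subset 6 were above it, and Tlr3 was not. Itgae was in both lists. Mouse probes do not check the human transgene: Bcl2 was at 6.11 ± 0.40 and 6.86 ± 0.34 (SD, n = 4).

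Itgb8 and Tgfb1, which free and supply TGF-beta, had the largest differences between the genotypes, and neither passed the threshold. Mean Itgb8 was 2.27-fold lower and mean Tgfb1 1.87-fold lower in transgenic cDC, while the receptors, the inhibitor Smad7 and the corepressor Ski differed by at most 0.29 in either direction. None of the 10 members passed in limma, 5 differences were positive and 5 negative, and their median was -0.09, beside a median of -0.0016 over all genes. Of all genes 1.69% passed, 0.839% higher and 0.848% lower. At an unadjusted p below 0.05 there were 3 members in limma's test, all lower, where 13.2% of all genes reached this in either direction and 6.6% were lower. The groups did not overlap for 3 members, Itgb8, Thbs1 and Smad2, all lower, beside 8.94% of all genes in either direction and 4.94% lower. With 10 genes chosen for their roles, these counts describe the members only.

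**Figure D1:**
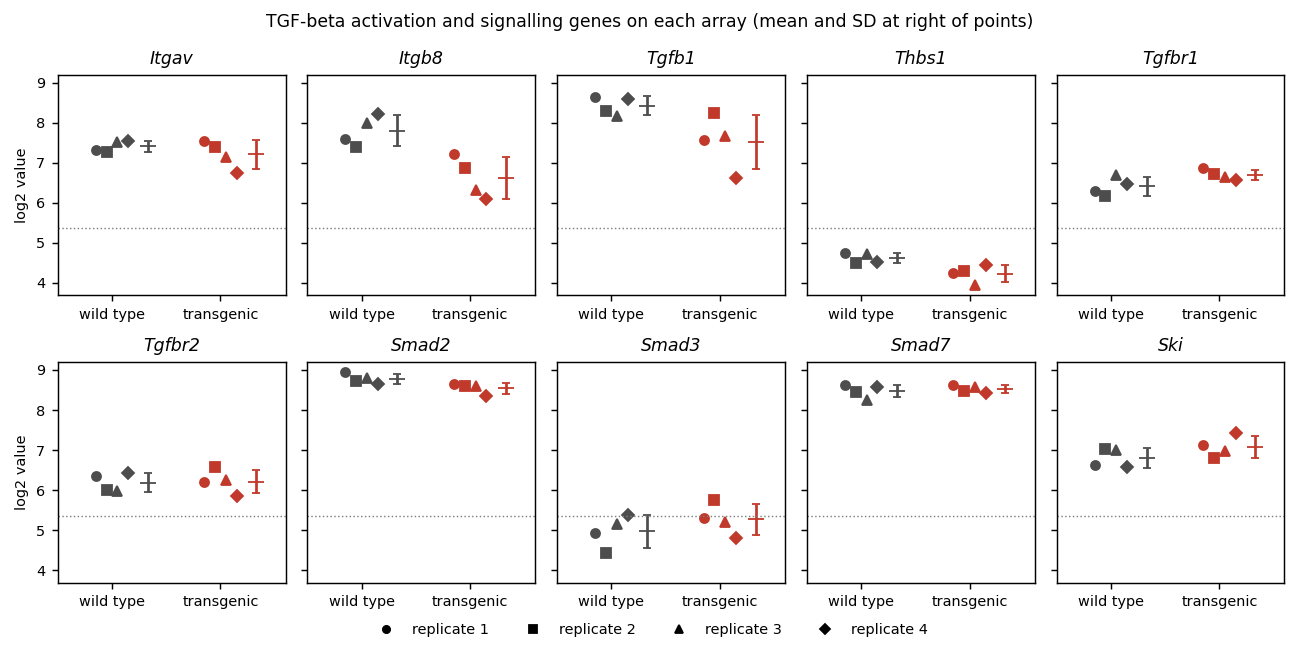
Log2 value (y axis) of each member on the 4 wild-type (grey) and 4 transgenic (red) arrays, with symbols for replicate numbers, and the mean and SD beside the points. The dotted line is the dim guide of 5.36. Itgb8 has all transgenic arrays below all wild-type arrays, and Thbs1 and most Smad3 points lie under the line.

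Itgb8 encodes the integrin beta-8 chain, the partner that gives alpha-v its ability to free TGF-beta on dendritic cells. Its level was 7.60, 7.40, 8.00 and 8.23 on wild-type replicates 1 to 4. On transgenic replicates 1 to 4 it was 7.22, 6.87, 6.31 and 6.09. Every transgenic array lay below every wild-type array, and the gap between the nearest arrays was small, from 7.22 to 7.40. The means were 7.80 ± 0.38 and 6.62 ± 0.52 (SD, n = 4), a difference of -1.18 (SE 0.26, 95% interval -1.76 to -0.61). By limma the adjusted p was 0.0536, and the gene ranked 398 of 22180 by p. Itgb8 thus lay just outside the threshold, and 5 of 18 alternative fits put it inside (adjusted p of 0.0322 to 0.151 in limma over the 18).

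The bases upstream of the start of Itgb8 and of Tgfb1 are shown because these members had the largest differences. The sequences are RefSeq's for GRCm38.p6, 250 bases each, 5′ to 3′ on the gene's strand. Capitals mark the GC box GGGCGG and the SMAD core GTCT, each searched on both strands.
Itgb8 (chr12:119238277-119238526, minus strand): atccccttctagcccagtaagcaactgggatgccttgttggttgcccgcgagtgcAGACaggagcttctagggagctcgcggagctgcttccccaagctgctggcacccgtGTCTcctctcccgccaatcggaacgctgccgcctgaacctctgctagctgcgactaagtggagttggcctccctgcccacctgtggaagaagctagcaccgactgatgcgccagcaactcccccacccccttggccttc
Tgfb1 (chr7:25686752-25687001, plus strand): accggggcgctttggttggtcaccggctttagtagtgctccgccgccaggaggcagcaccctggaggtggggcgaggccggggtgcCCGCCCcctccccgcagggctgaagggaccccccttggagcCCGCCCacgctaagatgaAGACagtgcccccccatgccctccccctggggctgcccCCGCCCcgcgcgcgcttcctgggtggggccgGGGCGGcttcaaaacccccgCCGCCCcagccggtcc
The Itgb8 window held 0 GC boxes and 2 SMAD cores, and the Tgfb1 window 5 GC boxes and 1 SMAD core. Of 32851 windows of the same length, 32.7% held a GC box and 82.9% a SMAD core, which is too short to be rare. The longer SMAD palindrome GTCTAGAC, in 0.167% of windows, was in neither, nor were the AP-1 element TGANTCA (6.75%) and the cyclic AMP element TGACGTCA (1.55%). A match is a description of the letters, and 7 of the 10 members had a window in the table.

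Itgav encodes the alpha-v chain, which pairs with beta-8 and with several other beta chains. Its level ran from 7.27 to 7.54 in wild type and from 6.74 to 7.55 in transgenic arrays, so the groups overlapped. The difference was -0.21 (SE 0.17, 95% interval -0.59 to 0.17, limma adjusted p = 0.693). Without transgenic replicate 4 it was -0.052, and without transgenic replicate 1 it was -0.32. The second Itgav probe set was dimmer, at 5.10 ± 0.28 and 4.56 ± 0.24 (SD, n = 4). It differed by -0.55 (SE 0.17, limma adjusted p = 0.161 over all probe sets), so both probe sets were lower and neither passed. Only wild-type replicate 4, at 5.46, lay above the dim guide in this second set, so the size of its difference is uncertain. Of other beta chains that can pair with alpha-v, Itgb1 differed by -0.012 (SE 0.11), Itgb3 by 0.049 (SE 0.20), Itgb5 by 0.28 (SE 0.21) and Itgb6 by -0.040 (SE 0.11). The 95% intervals of Itgb3 (-0.40 to 0.50) and Itgb5 (-0.17 to 0.74) leave room for a moderate change. None of these passed, and Itgb3 and Itgb6 lay under the dim guide with wild-type levels of 4.79 and 3.72. Whether Itgb8 differed more than its relatives was not tested.

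Tgfb1 encodes the TGF-beta ligand that immune cells make most. It was at 8.65, 8.28, 8.16 and 8.59 on wild-type replicates 1 to 4. On transgenic replicates 1 to 4 it was at 7.56, 8.23, 7.66 and 6.61. Transgenic replicate 2 lay inside the wild-type range, the other 3 transgenic arrays lay below it, and transgenic replicate 4 was the lowest. The means were 8.42 ± 0.24 and 7.52 ± 0.67 (SD, n = 4), a difference of -0.90 (SE 0.29, 95% interval -1.54 to -0.27, limma adjusted p = 0.169). Without transgenic replicate 4 the difference was -0.60 (limma adjusted p = 0.162), and the Itgb8 difference was -1.003 (limma adjusted p = 0.0869). Both genes therefore remained lower on the other arrays, and neither passed there.

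Thbs1 encodes thrombospondin 1, a matrix protein of platelets and stroma that can also free latent TGF-beta. Its level was 4.51 to 4.75 in wild type and 3.94 to 4.44 in transgenic arrays. The difference of -0.39 (SE 0.13, limma adjusted p = 0.196) lay wholly below the dim guide, so its size cannot be read as a change in expression. Of 8 measured platelet genes 6 were at or below the guide, among them Pf4 and Ppbp, and of 9 stromal genes 8 were.

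**Figure D2:**
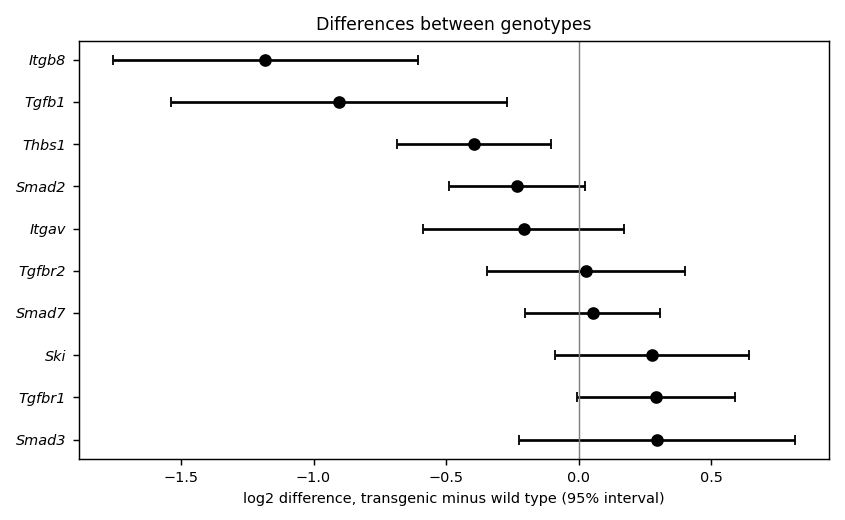
Log2 difference, transgenic minus wild type (x axis), for each member, with the 95% interval of limma's fit. Intervals of Itgb8, Tgfb1 and Thbs1 lie wholly below 0, and those of the other 7 members include 0.

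The receptor genes pointed upward slightly or not at all. Tgfbr1, the type I receptor kinase, was at 6.41 ± 0.23 in wild type and 6.70 ± 0.13 in transgenic arrays (SD, n = 4). The difference was 0.29 (SE 0.14, 95% interval -0.01 to 0.59, limma adjusted p = 0.395), and 2 transgenic arrays lay above all wild-type arrays. Tgfbr2, the type II receptor that binds the ligand, was at 6.19 ± 0.23 and 6.21 ± 0.29 (SD, n = 4), and its difference of 0.027 had a 95% interval of -0.35 to 0.40. The interval leaves room for a moderate change of Tgfbr2 in either direction.

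Among the signal carriers, Smad2 was bright and slightly lower, and Smad3 was dim. Smad2 was at 8.95, 8.72, 8.80 and 8.65 on wild-type replicates 1 to 4 and at 8.65, 8.60, 8.60 and 8.34 on transgenic replicates 1 to 4. The groups did not overlap, but the highest transgenic array (8.645) and the lowest wild-type array (8.646) were almost equal. The difference was -0.23 (SE 0.12, 95% interval -0.49 to 0.02, limma adjusted p = 0.435). Smad3 ran from 4.43 to 5.39 in wild type and from 4.81 to 5.76 in transgenic arrays, largely under the dim guide. Its difference was 0.30 (SE 0.23, limma adjusted p = 0.677). It was 0.11 without wild-type replicate 2, 0.13 without transgenic replicate 2 and 0.45 without transgenic replicate 4.

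Of the inhibitors, Smad7 differed less between the genotypes than Ski. SMAD7 is itself induced by TGF-beta and shuts the receptor down. Its level was 8.26 to 8.61 in wild type and 8.43 to 8.62 in transgenic arrays, a difference of 0.053 (SE 0.11, 95% interval -0.20 to 0.31, limma adjusted p = 0.911). Ski ran from 6.56 to 7.02 and from 6.80 to 7.43, with a difference of 0.28 (SE 0.17, limma adjusted p = 0.547). Transgenic replicate 4, the lowest transgenic array for most members, was the highest for Ski, and the Ski difference was 0.16 without it.

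The spread between pools was wider in transgenic arrays for 7 of the 10 members, close to the 62.1% of all genes for which this held. It was widest for Tgfb1, with an SD of 0.67 against 0.24, and for Itgb8, with 0.52 against 0.38. In wild type, Itgb8 and Smad3 varied most, with SDs of 0.38 and 0.41.

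Genes were ranked by positive correlation with Itgb8, leaving out predicted or unnamed genes, small RNAs and genes of olfactory and vomeronasal receptors. Those whose levels followed Itgb8 most closely over all 8 arrays were Gpr152 (Pearson r = 0.979), Tab2 (r = 0.972) and Capsl (r = 0.964). These values describe the 8 arrays, on which all 4 genes had a lower mean in transgenic cDC, and carry no test. Tab2 encodes an adaptor of the kinase TAK1, which acts downstream of TGF-beta, interleukin 1 and Toll-like receptors. It was at 9.88 ± 0.05 and 9.48 ± 0.13 (SD, n = 4), a difference of -0.40 (SE 0.11, limma adjusted p = 0.0947). Gpr152, an orphan receptor gene, differed by -0.43 (SE 0.13) and was dim, at 4.93 in transgenic arrays. Capsl differed by -0.69 (SE 0.19, limma adjusted p = 0.118).

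Among 87 other measured genes of the pathway, 1 fell, 0 rose and 86 did not pass, where 1.69% of all genes passed. The gene that fell was Foxh1, which encodes a forkhead factor that brings activated SMAD2 and SMAD3 to DNA and is best known from the embryo. The median difference over the 87 was -0.06, beside -0.0016 over all genes, and 64.4% were negative, beside 50.3% of all genes. At an unadjusted p below 0.05 there were 13 of 87 in limma, 3 higher and 10 lower. In total this was 14.9% beside 13.2% of all genes. By direction it was 11.5% lower beside 6.6%, and 3.45% higher beside 6.56%. Of the 87 genes 66 were above the dim guide, where 10962 of all 22180 genes were, so all genes are not a background of like brightness.

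Foxh1 was at 6.15, 6.35, 6.31 and 6.77 on wild-type replicates 1 to 4. On transgenic replicates 1 to 4 it was at 5.26, 5.17, 4.86 and 5.10. All transgenic arrays lay below all wild-type arrays and below the dim guide, so the size of the fall is uncertain. The difference was -1.30 (SE 0.15, 95% interval -1.63 to -0.96, limma adjusted p = 0.00441), a 2.46-fold fall. Foxh1 overlaps the kinesin gene Kifc2 in the RefSeq table. Kifc2 differed by -0.22 (SE 0.14) and did not pass.

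**Figure D3:**
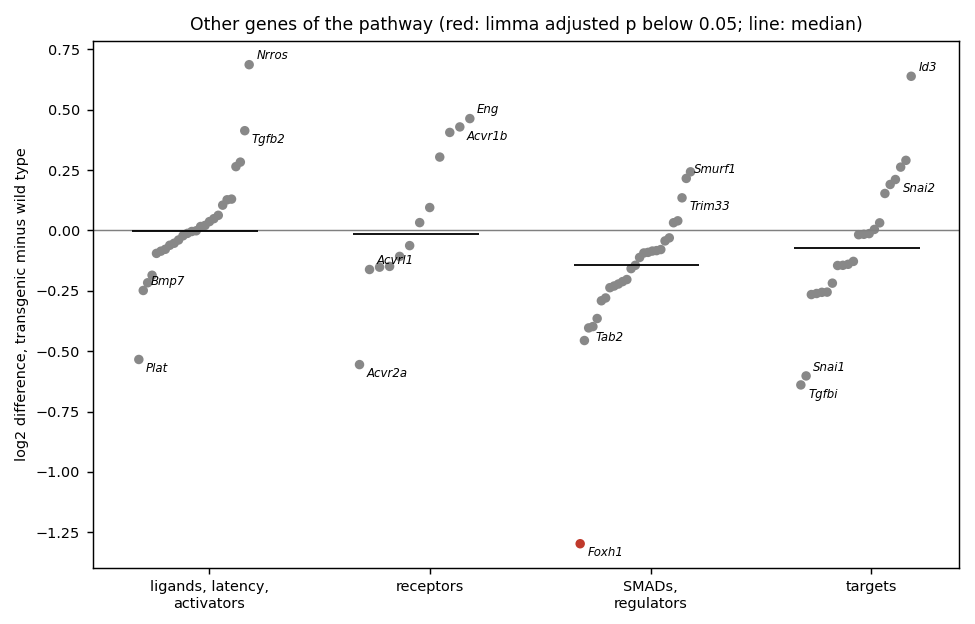
Log2 difference, transgenic minus wild type (y axis), for the 87 other pathway genes, sorted within 4 groups by role (x axis), with the median of each group as a line. Foxh1, in red, is the 1 gene past the threshold, at -1.30.

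Of 26 other ligands, latency proteins and activators, 0 passed in limma, beside 1.69% of all genes, with a median of -0.0029. An unadjusted p below 0.05 in limma was reached by 2 (7.69%), beside 13.2% of all genes. Nrros, which holds latent TGF-beta on the surface of myeloid cells, was at 7.13, 7.30, 7.57 and 7.55 on wild-type replicates 1 to 4. It was at 8.15, 8.70, 7.64 and 7.81 on transgenic replicates 1 to 4, above every wild-type array. The difference of 0.69 (SE 0.21, limma adjusted p = 0.164) thus ran opposite to those of Itgb8 and Tgfb1. Plat, the tissue plasminogen activator, differed by -0.53 (SE 0.21, limma adjusted p = 0.284), Tgfb2 by 0.41 (SE 0.24) from a dim level of 5.18, and Bmp7 by -0.25 (SE 0.13). The Tgfb2 difference was 0.18 without transgenic replicate 1, and that of Plat was -0.34 without transgenic replicate 3. Furin, the protease that cuts the TGF-beta precursor, was at 7.84 ± 0.03 and 7.82 ± 0.15 (SD, n = 4), with an interval of the difference of -0.26 to 0.22.

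Of 12 other receptors, 0 passed in limma, beside 1.69% of all genes, with a median of -0.015. An unadjusted p below 0.05 in limma was reached by 2 (16.7%), beside 13.2% of all genes. Acvr2a, a type II receptor for activins, was at 7.72 ± 0.06 and 7.17 ± 0.32 (SD, n = 4), a difference of -0.56 (SE 0.15, limma adjusted p = 0.112), and the groups did not overlap. Acvr1b, the type I receptor for activin, differed by 0.43 (SE 0.17, limma adjusted p = 0.282). Eng, which encodes endoglin, differed by 0.46 (SE 0.24) and Acvrl1 by -0.16 (SE 0.13). Without transgenic replicate 3 Eng was at 0.27, and without wild-type replicate 3 Acvrl1 was at -0.077.

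Of 27 other SMADs and regulators, Foxh1 fell and 26 did not pass, where 1.69% of all genes passed. The median over the 27 was -0.14, and 22 differences (81.5%) were negative, beside 50.3% of all genes. At an unadjusted p below 0.05 there were 6 in limma, all lower, which is 22.2% beside 6.6% of all genes lower. Of the 27 genes 25 were above the dim guide, where 10962 of all 22180 genes were. In limma 1941 of 8560 genes with a mean of at least 6 had an unadjusted p below 0.05, beside 2919 of all 22180. How the 27 stand beside equally bright genes was not tested. Skil, a relative of Ski, differed by -0.36 (SE 0.12, limma adjusted p = 0.207), and Nedd4l, a ubiquitin ligase that removes activated SMADs, by -0.46 (SE 0.14, limma adjusted p = 0.171). Smad4, the shared partner of SMAD2 and SMAD3, was at 9.43 ± 0.10 and 9.15 ± 0.17 (SD, n = 4), a difference of -0.28 (SE 0.12, limma adjusted p = 0.336). On the upper side, Smurf1, another ligase of the pathway, differed by 0.22 (SE 0.11) and Trim33 by 0.14 (SE 0.10), or 0.081 without transgenic replicate 3.

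Of 22 measured genes known as TGF-beta targets, 0 passed in limma, beside 1.69% of all genes. An unadjusted p below 0.05 in limma was reached by 3 (13.6%), beside 13.2% of all genes. The median over the 22 was -0.07, with 14 of 22 negative (63.6%, beside 50.3% of all genes). Id3, an inhibitor of helix-loop-helix factors, was at 5.02, 5.06, 5.52 and 5.48 in wild type and at 5.93, 5.64, 6.13 and 5.93 in transgenic arrays, in replicate order. All its transgenic arrays lay above all wild-type arrays, and the difference was 0.64 (SE 0.16, limma adjusted p = 0.0760) from a dim level. Tgfbi, a matrix protein gene named for its induction by TGF-beta, differed by -0.64 (SE 0.21, limma adjusted p = 0.177), and Snai1 by -0.60 (SE 0.22, limma adjusted p = 0.232). Snai2 differed by 0.21 (SE 0.11), under the dim guide. Itgae, the gene of CD103 and a known target that served for the sort, differed by -0.26 (SE 0.17), and Id2, a factor that cDC need, was at 11.94 ± 0.04 and 11.92 ± 0.07 (SD, n = 4).

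Markers of other cell types were compared with these values, since in sorted bulk samples fewer cells of a type and less RNA per cell cannot be told apart. The mean over 8 macrophage genes, of which 6 were above the dim guide, was 6.17 to 6.37 in wild type and 6.44 to 6.78 in transgenic arrays, and 1 of them rose, Adgre1 (difference 1.29, limma adjusted p = 0.0128). Differences of the other macrophage genes ran from -0.17 (C1qa) to 0.56 (Cx3cr1), and none passed. Of 7 monocyte genes 5 were above the guide and 0 passed. Ly6c2 differed by 1.81 (SE 0.77, limma adjusted p = 0.346). It was at 8.28, 10.38, 5.81 and 7.11 on transgenic replicates 1 to 4, against 5.46 to 6.83 in wild type. The other monocyte genes differed by -0.16 (F13a1) to 0.74 (Cd14). In other lists Cd4, of 5 T cell genes, rose by 1.18 (limma adjusted p = 0.00437), and Klrd1, of 8 NK genes, rose by 1.505 (limma adjusted p = 0.00644). The other T cell genes differed by -0.30 (Cd3e) to 0.16 (Cd3d) and the other NK genes by -0.31 (Gzmb) to 0.39 (Gzma). None of those passed. Bst2, of 7 plasmacytoid genes, rose by 0.76 (limma adjusted p = 0.0204), and Esam, of 8 endothelial genes, fell by 0.62 (limma adjusted p = 0.0320). The other plasmacytoid genes differed by -0.21 (Tcf4) to 0.68 (Siglech) and the other endothelial genes by -0.55 (Kdr) to 0.17 (Pecam1), none passing. Klrd1, at 9.18, and Esam, at 7.41, were the brightest of their lists in wild type. Of 8 NK genes 6 were above the dim guide, and of 8 endothelial genes 4 were. Which cells made these transcripts was not tested. The mean over 6 regulatory T cell genes, 3 of them above the guide, was 6.35 to 6.43 in wild type and 6.01 to 6.32 in transgenic arrays. Of these genes Foxp3 was at 5.54 and 5.44, and Il2ra, which dendritic cells also make, was at 9.21, 8.60, 7.04 and 7.28 on transgenic replicates 1 to 4 against 8.78 to 9.01 in wild type. The arrays low for Il2ra were also the lowest for Itgb8. The 7 cDC genes had a mean of 10.57 to 10.64 in wild type and 10.08 to 10.57 in transgenic arrays, lowest on transgenic replicate 4. They differed by -0.49 (Irf8), -0.42 (Zbtb46), -0.37 (Flt3), -0.25 (H2-Ab1), -0.11 (Irf4), 0.07 (Ccr7) and 0.17 (Itgax), and 0 passed. For Irf8, Flt3 and H2-Ab1 all transgenic arrays lay below all wild-type arrays, as for 4.94% of all genes. The plasmacytoid, NK, cDC1, monocyte, macrophage, endothelial and CD11b+ cDC lists were highest among transgenic arrays on replicate 2, the array on which Nrros was highest. The part of these cell types in the differences of Itgb8, Tgfb1 and Nrros was not tested.

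**Figure D4:**
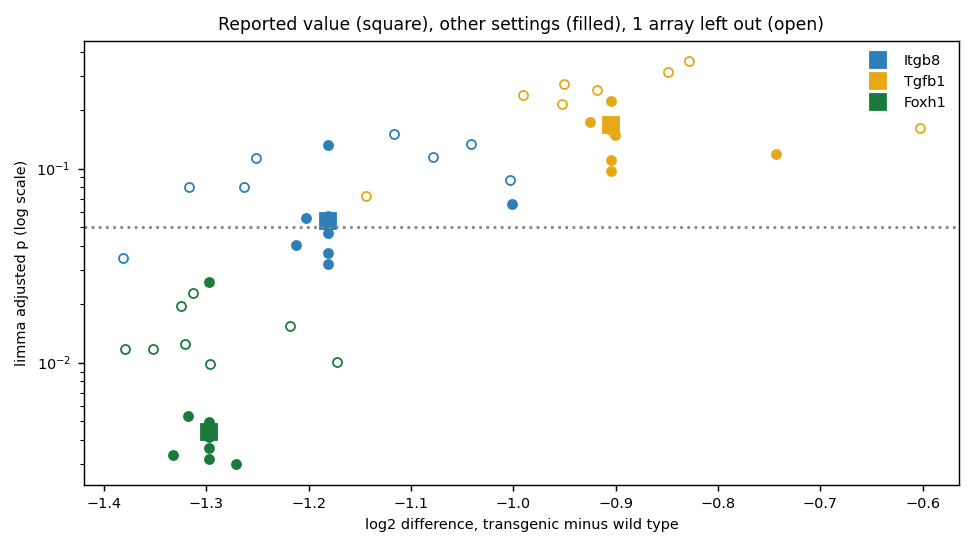
Adjusted p of limma (y axis, log scale) against the log2 difference, transgenic minus wild type (x axis), for Itgb8, Tgfb1 and Foxh1 under the reported fit (square), other settings (filled) and with 1 array left out (open). The dotted line is the threshold of 0.05: Itgb8 points lie on both sides of it, Tgfb1 points all above and Foxh1 points all below.

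Leaving out single arrays moved Itgb8 between -1.38 and -1.003, with adjusted p of 0.0347 to 0.151 in limma. It passed only without transgenic replicate 1, the transgenic array with the highest Itgb8 level. Tgfb1 ran from -1.14 without transgenic replicate 2 to -0.60 without transgenic replicate 4, and its adjusted p in limma stayed between 0.0722 and 0.359. Foxh1 ran from -1.38 to -1.17 and passed without each array in turn, with adjusted p of 0.00987 to 0.0229 in limma.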

How the data were processed

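Expression was measured on 8 arrays of sorted cDC, with biotin label and 2.5 ng of RNA amplified per the labels' protocols. The deposited log2 values per probe set come from the authors, and the submitters' processing notes name RMA and Partek without versions. RMA makes the arrays' distributions alike, so a shift of all genes would not be seen, though transgenic replicate 4 kept a narrower distribution. Any filter, and the genome build, is not stated in the sources used here.

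Of 34390 probe sets, 23521 name 1 gene, 1814 several and 9055 none in the platform annotation. For 1082 genes with several sets the one with the highest mean was used, which left 22180 genes, with no filter on signal and 0 columns left out. Transgenic was compared with wild type (4 arrays each) with limma 3.58.1 (lmFit, eBayes; R 4.3.3). P-values were adjusted over all genes by Benjamini and Hochberg. Arrays have no read depth, and their number limits the precision. P-values set a gene's difference against its spread between these pools, which limma moderates with all genes. Spread within a pool is not seen.

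The members and gene lists were chosen with earlier results of these data known. From each of the 4 lists of other pathway genes the text names up to 6 genes past the threshold and the 2 highest and 2 lowest by limma's statistic. Other list genes, and Kifc2 and Il2ra, were named after their values were seen. The dim guide was added after seeing the data. In 10 simulated data sets of this comparison over 22180 genes, limma recovered 75.7% of the 2-fold changes and 29.1% of the 1.5-fold changes. Each set had 200 changed genes and independent normal noise, with a gene's SD the same in both groups. Recovery on the real arrays may therefore differ. Alternatives covered variance moderation, dim genes, normalization, probe sets, array weights (statmod 1.5.0), the replicate number, the threshold and each array left out. Figures were drawn with matplotlib 3.10.9.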

Additional observations from a re-analysis of the deposited data

Results flagged for a closer look

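In a group of 4 arrays, an array was singled out where its gap to the nearest other array, as a share of the group's range, exceeded the 95% critical value of Dixon's test. This occurred in 3 of 52 groups tested over the members and the 16 other pathway genes that the naming rule chose, and chance gives about 1 in 20. Smad2 was at 8.34 on transgenic replicate 4, against 8.60 to 8.65 on the other 3 transgenic arrays. Acvr1b was at 8.13 on transgenic replicate 2, against 7.55 to 7.60 on the others. Snai2 was at 4.49 on transgenic replicate 2, against 4.75 to 4.77, all under the dim guide.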

How the results depend on the processing

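The count of members past the threshold was 0 in the reported fit (3 at an unadjusted p below 0.05 in limma). It was 1, Itgb8 each time, with trended and robust moderation, with dim genes left out (mean below the median gene, or below 6), after quantile normalization again and at an adjusted p of 0.1. Itgb8 then had adjusted p of 0.0468, 0.0366, 0.0322 and 0.0404 in limma for the first 4 of these. With 1 array left out the count was 0 to 1. The other pathway genes gave 1 past the threshold, 3 at an adjusted p of 0.1, and 0 when genes with a mean below 6 were left out (9 at an unadjusted p below 0.05 in limma), where Foxh1 is too dim to be tested. With 1 array left out the count was 1 to 1. Over all genes, 374 passed, 747 at an adjusted p of 0.1, 106 to 246 without any 1 of the arrays other than transgenic replicate 4, and 379 without that array. Signs held in every alternative run for 8 members and for the 16 other pathway genes that the naming rule chose. The pathway genes named outside that rule were not rerun singly. Tgfbr2, at 0.027, was -0.0397 after quantile normalization again. With 1 array left out it ran from -0.0908 to 0.148, below 0 without wild-type replicate 2 or 3 or transgenic replicate 2. Smad7, at 0.053, ran from -0.0176 (without wild-type replicate 3) to 0.10004. Itgav was -0.38 when its bright probe set was averaged with the one largely under the dim guide, against -0.21, and -0.052 without transgenic replicate 4. The samples share replicate numbers only: deviations of same-numbered arrays correlated at -0.03 to 0.08, and 1 of 4 wild-type arrays correlated best with its own number. With the replicate number as a block, 187 of all genes, 0 members (3 at an unadjusted p below 0.05) and 1 other pathway gene passed, and Itgb8 had an adjusted p of 0.132 in limma. Thbs1 and Smad3 lay too near the dim end for their differences to be sized. The causes of these changes were not tested.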
